A study of Mus musculus with 12 samples.

Results

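The small leucine-rich proteoglycans are secreted matrix proteins built from leucine-rich repeats. Here 10 of their genes, among 12393 genes with a probe set of their own, were followed: Dcn, Bgn, Aspn, Lum, Fmod, Prelp, Kera, Omd, Ogn and Chad. Every probe set that the platform annotation assigns to exactly 1 of these genes was taken, which gave 20 probe sets among 22690 on the array and among 20380 assigned to a single gene. Fmod had 6 probe sets, Bgn 3, Aspn, Prelp and Ogn 2 each, and the other genes 1 each. Where a gene had several, they are told apart by the suffix of their name (_at, _a_at, _s_at, _x_at); the 2 of Ogn, both _at, and the 5 _x_at of Fmod are named by their mean signal, which is no measure between probe sets.

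The arrays compare 3 groups of cells from hind limb muscle of C57BL/6J mice aged 8 to 12 weeks, with 4 Affymetrix Mouse 430A arrays each. Activated satellite cells (ASC) are cells positive for SM/C-2.6, an antibody to the mouse satellite cell surface, grown for 4 days in medium with 20% fetal calf serum and 2.5 ng/ml basic fibroblast growth factor, and more than 99% of them were MyoD-positive by the labels. Quiescent satellite cells (QSC) carry the same antibody mark, were taken straight from the sort and were more than 97% Pax7-positive. Non-myogenic cells (NMC) lack both SM/C-2.6 and the leukocyte antigen CD45, also came straight from the sort, and included fewer than 1% myogenic cells. No transgene or deletion is named for any group. Culture, time since sorting and activation differ together between ASC and QSC and cannot be told apart. Whether replicate arrays stem from separate mice or cultures is not stated, so the p-values below measure the spread between these arrays, which may be technical.

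These proteins bind collagen and set the width and spacing of its fibrils, and several also hold growth factors such as TGF-beta in the matrix. In muscle they belong to the connective tissue sheaths and the tendon junction, where fibroblasts and tendon cells make them, and biglycan also binds the dystrophin-associated complex of the fibre membrane. They fall into sequence classes: decorin (Dcn), biglycan (Bgn) and asporin (Aspn) form class I, lumican (Lum), fibromodulin (Fmod), PRELP (Prelp), keratocan (Kera) and osteomodulin (Omd) class II, osteoglycin (Ogn) belongs to class III, and chondroadherin (Chad) stands apart as a non-canonical member.

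Most of the genes lie side by side, in 3 runs of neighbouring protein-coding genes in the RefSeq annotation of assembly GRCm38.p6. Chromosome 1 carries Optc, Prelp and Fmod, chromosome 10 carries Dcn, Lum, Kera and Epyc, and chromosome 13 carries Ecm2, Aspn, Omd and Ogn. Chad on chromosome 11 and Bgn on chromosome X have no such neighbour. Promoters of 300 bases (250 before and 50 after the RefSeq start, GRCm38.p6) were matched for 8 of the 10 genes, and 4 are shown because the results turn on these genes. Prelp and Fmod are neighbours that hold different shares of their NMC signal in QSC, Bgn held the highest share of its NMC signal in ASC, and Chad the lowest share of its NMC signal in QSC. Capitals mark each match to CANNTG, the E-box core bound by MyoD and many other factors.
Prelp (chr1:133921352-133921651, minus strand): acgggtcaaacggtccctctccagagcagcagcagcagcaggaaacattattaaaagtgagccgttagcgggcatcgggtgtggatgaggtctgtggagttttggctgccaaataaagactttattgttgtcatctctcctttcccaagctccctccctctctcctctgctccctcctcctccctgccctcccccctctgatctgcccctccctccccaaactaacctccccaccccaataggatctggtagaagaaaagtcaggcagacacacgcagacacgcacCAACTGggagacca
Fmod (chr1:134037004-134037303, plus strand): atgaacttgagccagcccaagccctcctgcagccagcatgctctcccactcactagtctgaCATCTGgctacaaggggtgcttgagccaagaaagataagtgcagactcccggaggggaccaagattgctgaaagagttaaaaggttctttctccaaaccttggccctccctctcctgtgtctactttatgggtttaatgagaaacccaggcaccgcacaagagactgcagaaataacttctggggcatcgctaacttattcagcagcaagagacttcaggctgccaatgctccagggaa
Bgn (chrX:73483351-73483650, plus strand): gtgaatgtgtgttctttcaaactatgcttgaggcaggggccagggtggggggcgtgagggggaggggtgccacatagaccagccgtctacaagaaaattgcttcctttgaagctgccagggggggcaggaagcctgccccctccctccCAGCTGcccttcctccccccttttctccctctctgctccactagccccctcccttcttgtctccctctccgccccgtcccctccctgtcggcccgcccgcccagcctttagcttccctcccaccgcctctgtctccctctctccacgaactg
Chad (chr11:94564797-94565096, plus strand): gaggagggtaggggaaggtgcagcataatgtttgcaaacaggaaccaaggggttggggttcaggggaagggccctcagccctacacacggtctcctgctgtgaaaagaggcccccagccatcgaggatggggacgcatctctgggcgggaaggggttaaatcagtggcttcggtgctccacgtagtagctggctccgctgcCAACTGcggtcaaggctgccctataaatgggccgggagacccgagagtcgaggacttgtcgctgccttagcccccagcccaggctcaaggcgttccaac

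Each of these 4 promoters holds 1 E-box core. The CANNTG core, which reads the same on both strands, occurs in 6 of the 8 matched member promoters and in 72.3% of 32851 promoters of that length. TATAAA, searched on both strands, occurs in 3 of the 8 (Ogn, Aspn and Chad) and in 13.6% of all. CCAAT on either strand occurs in 4 of the 8 and in 37.4% of all, and CAGAC on either strand, the core of a Smad element, in 2 of the 8 (Prelp and Fmod) and in 49.6% of all. These are matches of letters and not measured binding sites.

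Signals are MAS5 intensities scaled to a common trimmed mean of 235 per array. Before scaling the 2% trimmed means of the 5 small-sample arrays, named after their labelling kit, were 323 to 502, and those of the 7 two-cycle arrays 160 to 236. ASC and QSC had 2 arrays per kit, and NMC had 1 small-sample and 3 two-cycle arrays. The label checks followed the groups: Pax7 averaged 90.2 ± 31.7 in ASC, 1071 ± 572 in QSC and 4.07 ± 2.42 in NMC, and Myod1 4629 ± 1244 in ASC, 1277 ± 328 in QSC and 36.2 ± 3.96 in NMC (SD, n = 4 each). Pecam1 averaged 4.99 ± 2.54 in ASC, 76.6 ± 25.3 in QSC and 221 ± 38.9 in NMC, and the leukocyte gene Ptprc 4.59 ± 4.43, 27.8 ± 20.7 and 27.5 ± 12.7. The 3'/5' signal ratio of Gapdh, which rises with RNA degradation and rounds of amplification, ran from 1.40 to 2.14 in ASC, from 3.06 to 5.36 in QSC and from 3.27 to 5.23 in NMC; its part in the results below was not tested. No detection calls were used here, so a low signal has no background limit of its own. Fewer cells of a type and less RNA per cell cannot be told apart in these bulk samples.

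The family was graded across the groups: it was low in ASC, intermediate in QSC and high in NMC. On 19 of the 20 probe sets every ASC array lay below every QSC array and every QSC array below every NMC array, an order found for 6.78% of the 12072 probe sets tested, and the _s_at probe set of Prelp was the exception, with QSC and NMC arrays overlapping. The median probe set of the family stood at percentile 22.6 of all signals in ASC, at 74.0 in QSC and at 99.3 in NMC. Probe sets of 1 gene count separately in the medians and counts of this report and are not independent, and Fmod alone has 6 of the 20. All 20 probe sets passed the filter, a mean signal of at least 47.0 over the 12 arrays. The NMC mean alone reached that level for the 2 of Aspn and the 1 of Chad, the QSC and NMC means for 13, and the means of all 3 groups for 4, those of Bgn and 1 of Ogn.

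**Figure D1:**
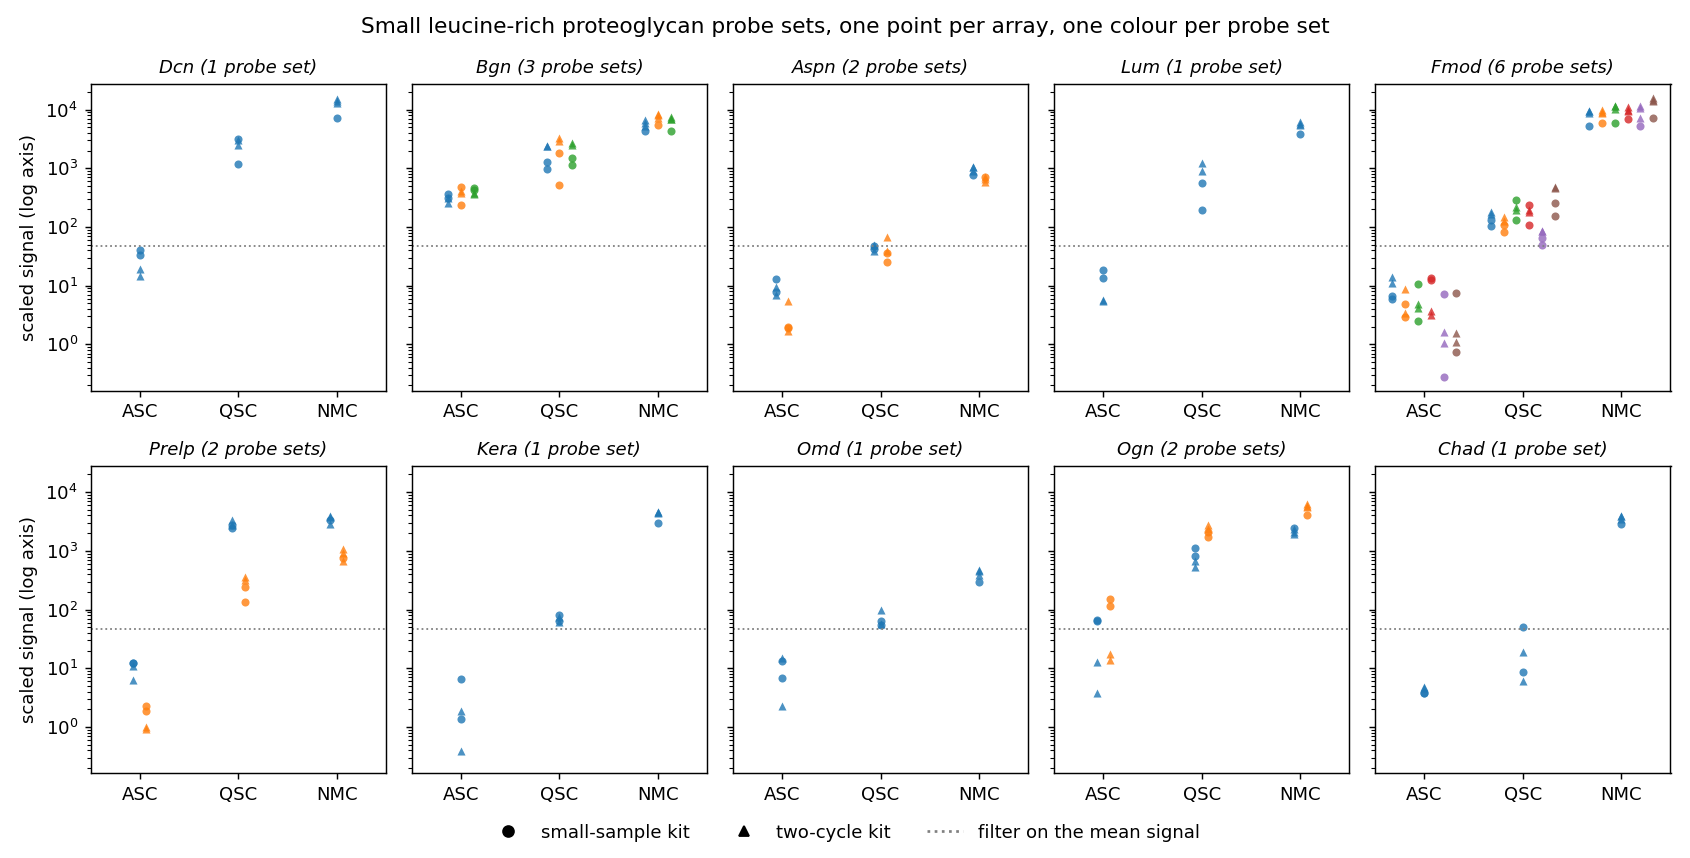
Scaled signal of each probe set on a log axis, with 1 point per array, circles for the small-sample kit, triangles for the two-cycle kit and 1 colour per probe set, for ASC, QSC and NMC from left to right. ASC points lie below QSC points on all 20 probe sets, and QSC and NMC overlap only for 1 probe set of Prelp; the dotted line marks the filter of 47.0 on the mean signal.

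Activated satellite cells had lower signals of the whole family than quiescent ones. All 20 probe sets were lower in ASC (limma, Benjamini-Hochberg adjusted p under 0.05 over all tested probe sets), where 37.6% of all probe sets tested were called lower. All 20 had no overlap between ASC and QSC arrays, with every ASC array lower, against 27.6% of all probe sets. The median log2 difference of the 20 was -2.71, against -0.12 over all probe sets, and 12 were called and at least 5-fold lower, against 6.01% of all. None was higher (limma; 0 at an unadjusted p under 0.05), against 30.7% of all. Differences are on a log2(signal + 14.7) scale, which understates the change where a signal is low.

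Prelp and Dcn had the widest differences between ASC and QSC. Prelp, whose product ties basement membrane perlecan to collagen, had signals of 12.2, 12.4, 6.22 and 11.0 on the 4 ASC arrays at its _s_at probe set, against 2798, 2496, 2707 and 3307 on the 4 QSC arrays. The ASC mean was 0.370% of the QSC mean, and the log2 difference was -6.82 ± 0.15 (SE, limma adjusted p 3.75e-12). The _at probe set of Prelp ran from 0.926 to 2.25 in ASC and averaged 263 ± 99.6 in QSC (SD, n = 4), a log2 difference of -4.02 ± 0.22. In ASC the 2 probe sets of Prelp stood at percentiles 25.7 and 4.42 of all signals. Dcn, the decorin gene and a binder of TGF-beta, read 41.2, 32.9, 19.3 and 14.9 on the ASC arrays and 3148, 1191, 2510 and 3002 on the QSC arrays. The groups were far apart although QSC replicate 2 was lower than its group, and Dcn fell by 5.84 ± 0.32 on the log2 scale (limma adjusted p 5.24e-09).

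Ogn and Lum fell as well, with spread inside the groups. Ogn, which encodes osteoglycin, also called mimecan, had 149.7, 116, 17.5 and 14.0 on the ASC arrays at its higher probe set, against 2053, 1698, 2707 and 2312 on the QSC arrays. The 2 small-sample ASC arrays were higher than the 2 two-cycle ones, and the same split appeared at the lower one, with 64.1 and 66.9 against 3.84 and 12.7. Over both kits the log2 differences of Ogn were -5.03 ± 0.44 and -4.18 ± 0.27. Lum, the gene of lumican, a keratan sulfate proteoglycan of the cornea and other connective tissues, had 18.2, 13.6, 5.69 and 5.58 in ASC and 567, 193, 1225 and 891 in QSC. Lum had a log2 difference of -4.61 ± 0.39 (limma adjusted p 2.39e-07).

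Bgn kept more of its signal in culture than the genes named so far. At its _a_at probe set Bgn had 425, 468, 357 and 373 on the ASC arrays and 1486, 1138, 2735 and 2481 on the QSC arrays. The ASC mean of its 3 probe sets was 17.7% to 20.7% of the QSC mean, and the log2 differences ran from -2.34 to -2.15. Bgn stood at percentiles 78.4 to 82.0 of all signals in ASC, and no other member had an ASC mean above 100. The _x_at probe set of Bgn spread widely in QSC, with 1806, 517, 3297 and 2901.

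Fmod, Kera, Omd and Aspn were lower in ASC than in QSC as well. Fmod, the fibromodulin gene of tendon and other dense tissues, averaged 2.53 to 9.33 in ASC over its 6 probe sets and 71.6 to 336 in QSC, at percentiles 51.2 to 79.2 of all signals, with log2 differences of -4.22 to -2.32. Kera, a keratan sulfate proteoglycan gene known from the cornea, averaged 2.55 ± 2.76 in ASC and 70.7 ± 9.67 in QSC, with a log2 difference of -2.31 ± 0.18. Omd, the osteomodulin gene known from bone, averaged 9.29 ± 5.81 in ASC and 68.2 ± 20.9 in QSC (log2 -1.79 ± 0.21). Aspn, whose product binds TGF-beta and carries no glycosaminoglycan chain, had QSC means of 44.7 and 42.0, and its log2 differences were -1.31 and -1.66. The means of Aspn and Chad lay under the filter level of 47.0 in both groups, though single QSC arrays lay above it.

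Chad, a cartilage gene whose product binds an integrin, gave the narrowest margin between ASC and QSC. Its signals were 3.76, 3.80, 4.90 and 4.59 in ASC and 8.54, 50.9, 6.16 and 18.7 in QSC. QSC replicate 2 held the highest value, the only 1 of the 8 above the filter level of 47.0. The log2 difference was -0.76 ± 0.28 (limma adjusted p 0.0283), and it was -0.38 (adjusted p 0.0583) without QSC replicate 2. It also missed the threshold within each kit, at -1.08 (adjusted p 0.0915) with the small-sample and -0.44 (adjusted p 0.109) with the two-cycle kit.

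**Figure D2:**
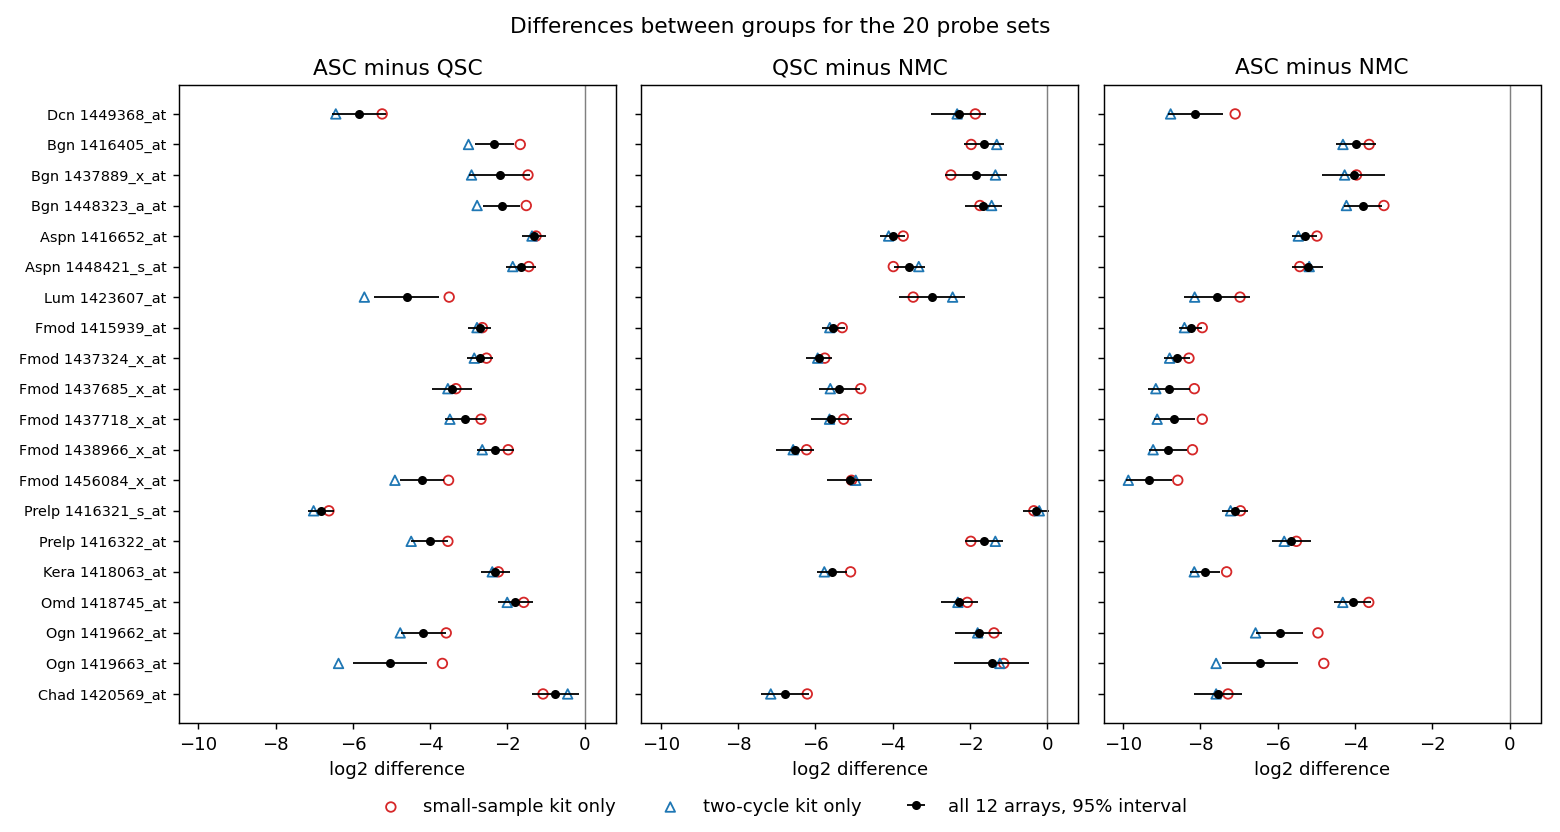
Log2 difference between groups for each of the 20 probe sets, with the value over all 12 arrays and its 95% interval in black, the small-sample kit alone as open circles and the two-cycle kit alone as open triangles. All values lie below 0; the interval of the Prelp _s_at probe set between QSC and NMC, -0.63 to 0.06, includes 0.

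Quiescent satellite cells had lower signals of the family than non-myogenic cells, to very different degrees. Of the 20 probe sets 19 were lower in QSC (limma, adjusted p under 0.05) and 1 did not pass the test, where 24.0% of all probe sets tested were called lower. None was higher (limma, 0 at an unadjusted p under 0.05), against 27.4% of all, and 11 were called and at least 5-fold lower, against 3.47%. Fmod gave 6 of these 11 and Aspn 2, so they stand for fewer genes. With 1 probe set per gene 9 of the 10 genes were called lower, against 2116 of 7961 genes tested. On the same 19 no QSC array reached an NMC array, against 18.9% of all. The median log2 difference was -3.27 against 0.08 over all probe sets, with a range of -6.80 to -0.29. The mean QSC signal was 0.597% to 81.9% of the mean NMC signal, with a median of 9.96% over the probe sets.

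Prelp was close to its NMC level at 1 of its 2 probe sets. At _s_at it had 2798, 2496, 2707 and 3307 on the QSC arrays and 3362, 2833, 3765 and 3846 on the NMC arrays. The groups overlap, and the log2 difference was -0.29 with a 95% interval of -0.63 to 0.06 (limma adjusted p 0.147). Its other probe set disagreed: at _at Prelp averaged 263 ± 99.6 in QSC and 858 ± 175 in NMC, a log2 difference of -1.63 ± 0.23 (adjusted p 6.05e-05) with no overlap. The QSC mean was 81.9% of the NMC mean at the first and 30.7% at the second, so the size of the Prelp difference, and whether Prelp or Ogn held the larger share, depends on the probe set. On deposited values without scaling the first probe set also passed the test (log2 -0.62, adjusted p 0.0172).

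Ogn, Bgn and Dcn kept 20.2% to 40.4% of their NMC signal in QSC. Ogn had 2053, 1698, 2707 and 2312 in QSC at its higher probe set and 4089, 5804, 6226 and 5580 in NMC, a log2 difference of -1.44 ± 0.45 (limma adjusted p 0.0174). Its QSC mean was 40.4% of the NMC mean at this probe set and 35.2% at the lower one. For Bgn the share was 29.3% to 31.5% over 3 probe sets, and the log2 differences were -1.84 to -1.64. At _a_at Bgn had 4378, 6774, 7481 and 7000 in NMC, all above the 4 QSC values given earlier. Dcn averaged 2463 ± 891 in QSC and 12189 ± 3545 in NMC, a share of 20.2% and a log2 difference of -2.29 ± 0.33 (adjusted p 7.16e-05). Within the small-sample kit, which has 1 NMC array, Dcn differed by -1.86 with an adjusted p of 0.0584.

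Omd, Lum and Aspn were lower still in relative terms. Omd averaged 68.2 ± 20.9 in QSC and 398 ± 80.2 in NMC (17.1%, log2 -2.27 ± 0.22). Lum averaged 719 ± 442 in QSC and 5287 ± 1021 in NMC (13.6%, log2 -2.97 ± 0.40). Aspn averaged 44.7 ± 4.72 in QSC and 942 ± 135 in NMC at _at (4.74%), with log2 differences of -3.99 and -3.57 at its probe sets.

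Fmod, Kera and Chad had at most 2.59% of their NMC signal in QSC. At its _at probe set Fmod had 130, 104, 178 and 167 in QSC and 5174, 8724, 9544 and 9463 in NMC. Over its 6 probe sets, 5 of which carry the suffix for probes that may match more than 1 transcript, Fmod in QSC stood at 0.824% to 2.59% of NMC, and the log2 differences were -6.52 to -5.12. Kera had 82.3, 63.4, 75.0 and 62.1 in QSC and 2946, 4522, 4482 and 4526 in NMC (1.72%, log2 -5.57 ± 0.18). Chad had 2872, 3514, 3880 and 3852 in NMC, and its QSC mean of 21.1 ± 20.6 was 0.597% of the NMC mean (log2 -6.80 ± 0.29, limma adjusted p 1.23e-09). In QSC the Chad signal sat at percentile 21.6 of its arrays, and in NMC at 98.5.

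Neighbouring genes of 1 run differed in how far QSC lay below NMC, which is described for the 5 neighbouring pairs of members with no test, since the pairs were taken up after these values were seen. Each value is the within-array log2 difference of the 2 genes' highest probe sets, QSC minus NMC. Prelp relative to Fmod was higher in QSC by 4.99 (4.72 on small-sample and 4.75 on two-cycle arrays) with Prelp at _s_at; at _at Prelp itself lay further below NMC (log2 -1.63 against -0.29), which makes this gap smaller. Lum relative to Kera was higher by 2.48 (1.62 and 3.32 within the kits). The value was -1.68 for Aspn relative to Omd and -1.02 for Omd relative to Ogn. Dcn relative to Lum differed by 0.77, with overlapping arrays.

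**Figure D3:**
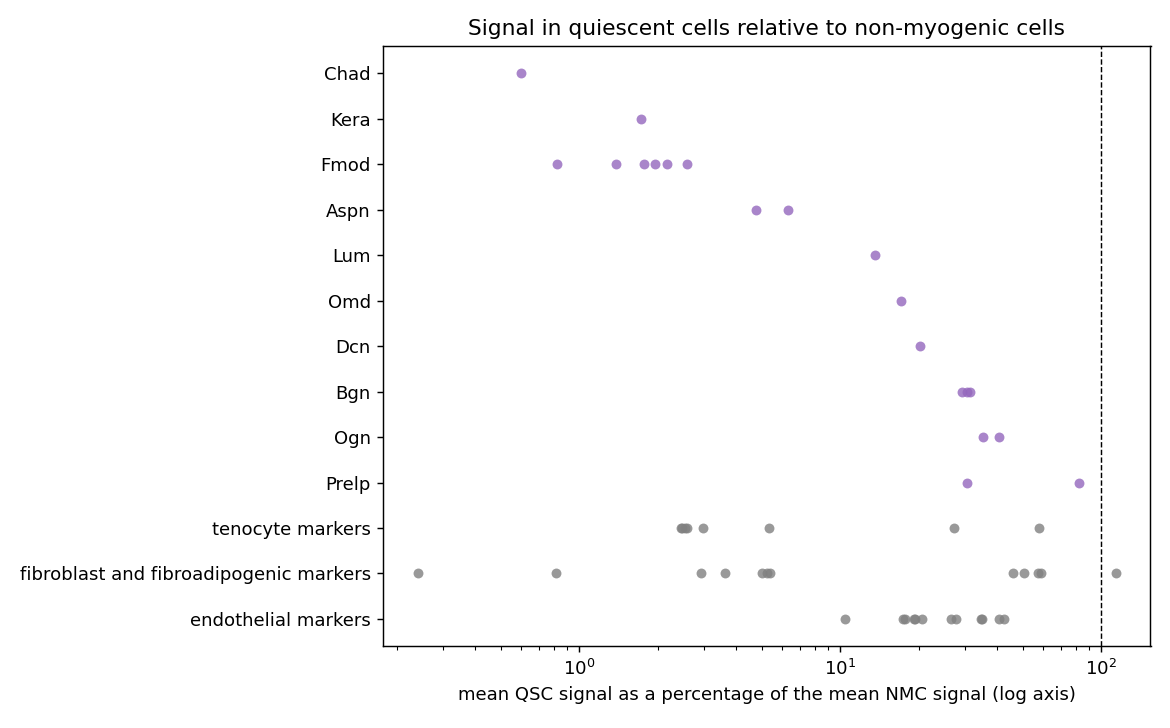
Mean QSC signal as a percentage of mean NMC signal on a log axis, with 1 purple point per member probe set and 1 grey point per gene for the markers of 3 other cell types. Chad lies at 0.597% and Prelp at up to 81.9%. The genes of the fibroblast list run from 0.241% to 113%, an upper end set by Tcf4, which is not specific to fibroblasts. The dashed line marks 100%.

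Between QSC and NMC, markers of some other cell types moved with the family and those of others did not. Between ASC and QSC, most of the lists had more markers lower than higher in ASC. Over all probe sets tested 24.0% were called lower and 27.4% higher in QSC than in NMC. In ASC against QSC 37.6% were called lower and 30.7% higher, and these shares are the background of the counts in this paragraph. Of 12 fibroblast and fibroadipogenic markers on the array 11 were lower in QSC than in NMC and 11 lower in ASC than in QSC. Their summed signal ran from 589 to 1130 in ASC, 12595 to 29148 in QSC and 40376 to 64334 in NMC. Single genes of this list in QSC stood at 0.241% (Dpp4) to 113% (Tcf4) of their NMC mean, with a median of 5.30%. Tcf4, which sets the upper end and counts in the sum, is expressed in many cell types and is no specific fibroblast marker. Dpt stood at 46.0%, Serping1 at 58.9%, the 2 probe sets of Pdgfra at 5.24% and 11.4%, and the sum at 36.9%. The summed signal of the 8 tenocyte markers ran from 78.8 to 190 in ASC, 519 to 1015 in QSC and 15258 to 23124 in NMC, and all 7 that passed the filter were lower in QSC than in NMC. The eighth, the tendon factor gene Scx, lay under the filter on average and was not tested, with means of 56.8 ± 32.2 in ASC, 25.2 ± 5.68 in QSC and 43.6 ± 12.2 in NMC. The tendon gene Tnmd averaged 7.40 ± 3.51 in ASC, 125 ± 39.8 in QSC and 4851 ± 913 in NMC, so that QSC stood at 2.58% of NMC. The 12 endothelial markers were all lower in QSC than in NMC and in ASC than in QSC, with QSC at a median of 23.6% of NMC. Of 9 pericyte and smooth muscle markers tested 6 were lower and 1 higher in QSC than in NMC. The leukocyte markers summed to 2579 and 722 on the small-sample and to 232 and 241 on the two-cycle QSC arrays, overlapping the 239 to 489 in NMC. The 4 tested did not pass between QSC and NMC (limma adjusted p 0.0637 to 0.26). Schwann cell markers summed to 2645 to 4254 in QSC and 1444 to 1715 in NMC, with 1 lower and 1 higher of 5 tested, and bone markers to 187 to 412 in QSC and 216 to 331 in NMC, and the 2 tested did not pass (limma adjusted p 0.163 and 0.547). Between ASC and QSC, 7 of the 9 pericyte, 3 of the 4 leukocyte and 4 of the 5 Schwann cell markers tested were lower in ASC. One-way change was not complete, as 1 pericyte marker was higher, and of the 2 bone markers 1 was lower and 1 higher. Satellite cell markers were lower in ASC too (9 of 10), and markers of committed myoblasts were higher (7 of 8). No marker of these lists was at 0 on any array. Of 8 cartilage markers 3 passed the filter, of which 2 were lower and 1 higher in QSC than in NMC. The 8 summed to 290 to 349 in QSC and 3440 to 4881 in NMC. Comp, which is also in the tenocyte list, averaged 92.5 ± 31.6 in QSC and 3728 ± 706 in NMC. Acan averaged 50.2 ± 13.5 and Col2a1 206 ± 73.7 in NMC. The part of these cell types in the differences of the family was not tested.

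QSC replicate 2 was singled out after its values were seen, for its low signal at 1 probe set of the fibroblast marker Pdgfra. That probe set had 198.7, 21.9, 226.7 and 186.6 on the QSC arrays, while the other had 16.7, 29.0, 42.9 and 29.1, and Pax7 had 1004, 1899, 743 and 640.2. On that array Dcn (1191), Lum (193), all 3 probe sets of Bgn and all 6 of Fmod were the lowest of their group, as were the higher Ogn (1698) and the _at Prelp (133.9) probe sets. Omd (53.9) and Aspn at _s_at (25.5) were the lowest too, as was Prelp at _s_at (2496), close to the next array (2707). The lower Ogn probe set (1120) and Chad (50.9) were the highest of their group. Aspn at _at (47.7) and Kera (63.4) were neither highest nor lowest. No share over all probe sets is given for this array, so no excess is read. None of the gaps of this array passed Dixon's test for an outlying value, and for Bgn both small-sample arrays were below both two-cycle ones. Without this array the log2 differences between QSC and NMC were -2.03 for Dcn, -2.57 for Lum, -0.23 for Prelp at _s_at (adjusted p 0.251) and -1.25 for the higher Ogn probe set (adjusted p 0.0447).

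The labelling kit moved with part of the ASC and QSC difference. A test of the interaction of kit and group called 5 of the 20 probe sets for ASC minus QSC, where 4.66% of all probe sets were called (limma, adjusted p under 0.05). The higher Ogn probe set differed by -3.68 within the small-sample and -6.37 within the two-cycle kit, an interaction of 2.69 ± 0.27 (adjusted p 0.000612). Lum differed by -3.51 and -5.70 within the kits (interaction adjusted p 0.0403), Bgn at _a_at by -1.51 and -2.79 (0.0224), Bgn at _at by -1.67 and -3.01 (0.0277), and the highest Fmod probe set by -3.52 and -4.91 (0.0446). For Lum and Bgn the QSC arrays of the two-cycle kit were the higher ones, and for Ogn the ASC arrays of the small-sample kit. The fibroblast marker sum was split by kit too, in opposite directions: it was 1130 and 920.1 on the small-sample and 589 and 611 on the two-cycle ASC arrays, and 16214 and 12595 on the small-sample and 29148 and 26238 on the two-cycle QSC arrays. Its part in these interactions was not tested. For QSC minus NMC the interaction called 0 of the 20 (limma; 1 at an unadjusted p under 0.05), against 0.00% of all, a test with 1 small-sample NMC array.

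**Figure D4:**
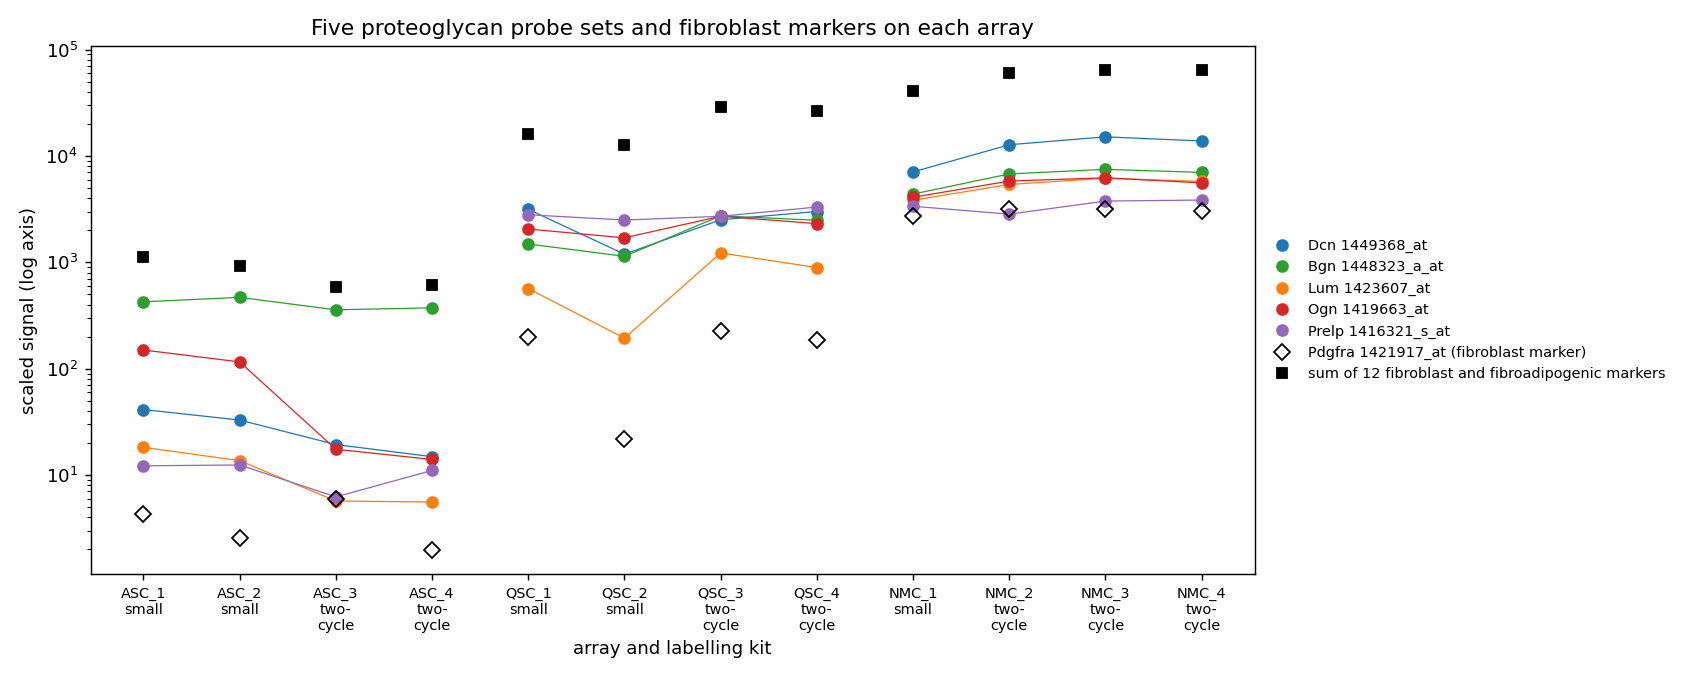
Scaled signal on a log axis for 5 proteoglycan probe sets (coloured), 1 Pdgfra probe set (open diamonds) and the sum of 12 fibroblast and fibroadipogenic markers (squares) on each array, ordered ASC, QSC, NMC with the labelling kit below. QSC replicate 2 is the lowest QSC array for Pdgfra (21.9), Lum (193), Dcn (1191), Bgn (1138), Ogn (1698) and Prelp (2496). For Prelp the next array is close (2707). Ogn is higher on the 2 small-sample ASC arrays than on the 2 two-cycle ones.

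Set against NMC, activated cells had lower signals at all 20 probe sets, each called and at least 5-fold lower, against 9.47% of all probe sets tested (35.9% were called lower at any size). This comparison shares its arrays with both others. The log2 differences ran from -9.33 at the highest Fmod probe set to -3.80 at Bgn _a_at, with a median of -7.33 against -0.04 over all probe sets. Bgn kept the highest share of its NMC mean in ASC, 5.19% to 6.33%. The share was 2.33% for Omd and 1.37% and 1.66% for Ogn. Dcn stood at 0.222%, Lum at 0.204%, Prelp at 0.303% and 0.175%, Chad at 0.121%, Kera at 0.0619%, and Fmod at 0.0209% to 0.113%. Apart from Bgn, ASC signals were low and had no detection calls. The shares of the other genes are therefore at most upper limits, and the order among them is not read. For the higher Ogn probe set the difference was -4.81 within the small-sample and -7.60 within the two-cycle kit (interaction adjusted p 0.00228), the 1 probe set of the family with a called interaction here, against 0.596% of all. No member was higher in ASC than in NMC (limma; 0 at an unadjusted p under 0.05), against 34.1% of all, and the arrays of all 20 did not overlap, against 29.5%.

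Of 8 further leucine-rich matrix genes, Epyc and Optc, neighbours of Kera and of Prelp, had probe sets assigned to them alone, and both lay under the filter and were not tested. Epyc, the epiphycan gene of cartilage, averaged 11.4 ± 3.78 in ASC, 15.4 ± 3.27 in QSC and 46.6 ± 3.52 in NMC (SD, n = 4 each). Its 4 NMC arrays lay above all others. Optc, known from the eye, averaged 7.52 ± 3.49, 14.4 ± 14.2 and 15.9 ± 11.4, with overlapping groups.

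The collagens that the family binds or organises followed a like order. Of 12 genes tested 9 were lower in ASC than in QSC (median log2 -2.25) and all 12 were lower in QSC than in NMC (-2.46) and in ASC than in NMC (-5.28). Over all probe sets 37.6%, 24.0% and 35.9% were called lower in these comparisons. Col6a1, a chain of the microfibrillar collagen that decorin and biglycan bind, averaged 76.2 ± 65.1 in ASC, 4013 ± 843 in QSC and 8631 ± 1302 in NMC, and fell by 5.68 ± 0.31 between ASC and QSC on the log2 scale. Col6a2 (log2 -5.09), Col1a1 (-3.65) and Col3a1 (-2.56) also fell. Col14a1, a fibril-associated collagen, showed the widest QSC to NMC difference of those named (-4.54 ± 0.25), followed by Col11a1 (-3.90), Col1a1 (-3.57) and the cartilage collagen Col2a1 (-3.39).

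Enzymes that build the sugar chains did not share 1 direction. Of 15 tested genes of the linker and of chondroitin or dermatan sulfate 6 were lower and 2 higher in ASC than in QSC (median log2 -0.20), against 37.6% lower and 30.7% higher of all probe sets, so the share lower was near that background. Csgalnact1, which starts chondroitin chains, averaged 30.6 ± 16.3 in ASC and 287 ± 22.0 in QSC (log2 -2.80 ± 0.19), and Papss2 (-1.70), which makes the sulfate donor, and Chst7 (-1.20) were lower too. Ugdh, which makes the UDP-glucuronic acid needed for the chains, was higher in ASC (log2 1.29 ± 0.20), as was the linker enzyme gene B3galt6 (0.95, and 0.50 with adjusted p 0.0707 within the two-cycle kit). Against NMC, 9 of the 15 were lower in QSC (24.0% of all probe sets), among them Papss2 (-3.01), Chst12 (-2.94), Ugdh (-1.98) and Chpf2 (-1.38). Slc35d1 was higher (0.43), with overlapping arrays, and within the two-cycle kit it did not pass (0.36, limma adjusted p 0.0543). In ASC against NMC 12 of the 15 were lower (35.9% of all), led by Papss2 (-4.71), Chst12 (-3.08), Csgalnact1 (-2.86) and Chst7 (-2.16). B3galt6 was higher (0.76), but did not pass within the two-cycle kit (0.33, limma adjusted p 0.167).

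Of 10 tested genes of keratan sulfate and tyrosine sulfation, modifications that Fmod, Lum, Kera and Omd proteins carry, 4 were higher and 5 lower in ASC than in QSC (median log2 -0.51), near the 30.7% and 37.6% of all probe sets. The sialyltransferase gene St3gal1 averaged 476 ± 91.3 in ASC and 42.2 ± 7.87 in QSC (log2 3.10 ± 0.16). Chst2 (2.52), which sulfates N-acetylglucosamine, the tyrosine sulfotransferase gene Tpst2 (2.05) and Fut8 (0.41, adjusted p 0.0312) were also higher, and St3gal2 (-2.03) was lower. In QSC against NMC 6 were lower (24.0% of all), including St3gal1 (-2.66), B3gnt2 (-2.03), the keratan sulfate sulfotransferase gene Chst1 (-1.94) and B4galt1 (-1.50), and St3gal3 was higher (0.45). In ASC against NMC 6 were lower (35.9% of all), including Chst1 (-2.92), B3gnt2 (-2.83), Tpst1 (-2.50) and St3gal2 (-2.31), and Chst2 (2.16), Tpst2 (1.02) and St3gal1 (0.44) were higher.

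Proteases that process or cleave these proteoglycans were mostly lower in ASC. Of 10 tested 7 were lower in ASC than in QSC, 8 lower in QSC than in NMC and 9 lower in ASC than in NMC (medians log2 -1.56, -1.54 and -4.39), against 37.6%, 24.0% and 35.9% of all probe sets. Adamts1 (-4.86 ± 0.31), Mmp2 (-4.44 ± 0.30) and Adamts5 (-4.25 ± 0.26) fell between ASC and QSC, and Pcolce2, a helper of procollagen processing, rose (1.93 ± 0.13). Bmp1, which trims the biglycan propeptide, averaged 176 ± 21.7 in ASC, 445 ± 16.2 in QSC and 1264 ± 95.5 in NMC. In QSC against NMC Pcolce2 (-3.85), Pcolce (-3.62), Mmp3 (-3.31) and Bmp1 (-1.45) were lower and Adamts4 was higher (0.70, adjusted p 0.0435). In ASC against NMC Mmp2 (-6.08), Htra1 (-5.96), Adamts5 (-5.62) and Bmp1 (-2.73) were lower.

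Among 15 tested ligands and receptors that these proteoglycans bind, 10 were lower and 2 higher in ASC than in QSC (median log2 -1.52), against 37.6% lower and 30.7% higher of all probe sets. Bmp4, a growth factor bound by biglycan, averaged 16.3 ± 8.13 in ASC, 1493 ± 357 in QSC and 554 ± 131 in NMC. It was lower in ASC than in QSC (log2 -5.61 ± 0.19) and higher in QSC than in NMC (1.31 ± 0.19; on small-sample arrays alone 1.00, adjusted p 0.114). Egfr, a receptor bound by decorin, was lower in ASC than in QSC (-3.50 ± 0.15), as was Kdr (-2.51 ± 0.14), and the hyaluronan receptor gene Cd44 (2.09 ± 0.15) and Itgb1 (0.74 ± 0.20; 0.24 with adjusted p 0.320 within the two-cycle kit) were higher. In QSC against NMC 6 were lower (24.0% of all), including Kdr (-3.41), Tgfbr2 (-2.08) and the biglycan receptor gene Tlr2 (-1.82), and besides Bmp4 Tgfbr1 was higher (0.79 ± 0.14). In ASC against NMC 11 were lower (35.9% of all), among them Kdr (-5.92), Bmp4 (-4.30), Egfr (-3.77) and Tlr2 (-3.10), and Cd44 was higher (1.64).

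The genes most like each member were sought over the 12 arrays by Pearson's r of log2 signals among all genes that passed the filter, with 1 probe set per gene. The arrays fall into 3 groups at very different levels, which every pair of genes shares, so r is a description only. For Prelp these were Aldh1a1 (r = 0.998), Serping1 and Itih5, for Dcn Fcgrt (0.996), Clu and Mmp2, for Lum Steap4 (0.996), Sparcl1 and Aqp1, and for Bgn Htra1 (0.995), Lum and Aqp1. For Ogn they were Myl12b (0.997), Lama2 and Galnt16, and for Omd Uap1 (0.995), Hspa12b and Fmod. Kera and Aspn each had the other as the most like gene (0.998), with Sfrp4 and Ctsk next for Kera and Efhd1 and Crispld1 next for Aspn. For Fmod they were Tgfbi (0.997), Grk5 and the tendon matrix gene Thbs4, and for Chad Irf4 (0.994), Arsi and Mfap4.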

How the data were processed

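RNA of 12 samples was isolated on Qiagen RNeasy columns, labelled with biotin and hybridised to 1 Mouse 430A array each, per the labels' protocols, which name 2 labelling kits. The deposited intensity values are MAS5 signals on a linear scale, per the submitters' processing notes; their software settings were not given in the sources used here, and arrays lay at different levels. Every array was brought to 1 common 2% trimmed mean (235.14) and turned into log2(signal + 14.696). The 20380 probe sets with 1 gene were named through the platform table, 20351 with the symbol updated by Entrez ID. Those with a mean of at least 47.028 entered a limma 3.58.1 model (R 4.3.3; group and kit, 12 arrays, 8 residual degrees of freedom, Benjamini-Hochberg over 12072 probe sets), and within each kit. All probe sets of a gene were tested; lists use the probe set with the highest mean. On simulated data for ASC against QSC over 12072 probe sets, 100 were changed at each size. Of these, 80.0% of 2-fold and 98.0% of 4-fold changes were called, as were 10 unchanged probe sets. The simulation had no interaction of kit and group and far fewer changed probe sets than were called in the data. Its rates need not hold there. No pair of arrays was identical. Figures used Python 3.11.15 and matplotlib 3.10.9.

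The members and lists were chosen with earlier results of these data known. All members, Epyc, Optc and the label checks are named, for each other list up to 4 called genes with the smallest adjusted p and those called against most of the list, and 3 genes most like each member; marker genes, and QSC replicate 2, were picked after their values were seen. Whether replicate numbers pair the samples could not be told. After removal of group, which leaves any effect of the kit, 9 of 12 same-number correlations exceeded 0.1. After removal of group and kit 1 of 12 did (range -0.506 to 0.251), but so few arrays per group and kit cannot exclude pairing. Alternatives were other scaling, pseudocounts, filters, probe set rules, kits, variance models, a replicate block and each array left out. Promoters are from RefSeq (GRCm38.p6).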

Additional observations from a re-analysis of the deposited data

Results flagged for a closer look

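The highest or lowest array lay far from the other 3 of its group in 6 of 60 sets of 4 arrays, where chance gives about 1 in 20 for independent sets. Probe sets of a gene share their arrays, so these sets are not independent and no excess is read. NMC replicate 1, the small-sample array of its group, was the lowest for Kera (2946 against 4482 to 4526) and for Fmod at _at (5174 against 8724 to 9544), at a second probe set (5984 against 10200 to 11335) and at its highest (7104 against 14231 to 15961). ASC replicate 4 was the highest for Aspn at _s_at (5.47 against 1.72 to 1.96), and ASC replicate 1 for the highest Fmod probe set (7.46 against 0.750 to 1.59), both at very low signal.

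The log2 difference between groups itself differed between the labelling kits (small-sample minus two-cycle) for ASC against QSC by 1.34 at Bgn _at, 1.27 at Bgn _a_at, 2.20 at Lum, 1.39 at the highest Fmod probe set and 2.69 at the higher Ogn probe set. For ASC against NMC it differed by 2.79 at the higher Ogn probe set. In each case ASC was the lower group within both kits.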

How the results depend on the processing

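All member differences kept their sign under the 16 other settings and with each of the 12 arrays left out. With 1 probe set per gene 10 of 10 member genes were called lower in ASC than in QSC, 9 of 10 in QSC than in NMC and 10 of 10 in ASC than in NMC, and with a gene's probe sets averaged 10, 10 and 10. Leaving out 1 array gave 19 to 20 probe sets lower in ASC than in QSC, 19 to 19 in QSC than in NMC and 20 to 20 in ASC than in NMC. Chad lost its call for ASC against QSC under median centring, quantile normalization, the larger pseudocount, either kit alone and without ASC replicate 1 or 2 or QSC replicate 2 or 4 (adjusted p 0.0581 to 0.279). Over all probe sets the small-sample arrays alone called 2072 for QSC against NMC and 5281 for ASC against NMC, with fewer arrays. Prelp at _s_at passed the test between QSC and NMC with its probe sets averaged (-0.96) and without scaling. Dcn (-1.86) and Bgn at _x_at (-2.49) between QSC and NMC, and Bgn at _x_at between ASC and QSC (-1.47), lost their calls on small-sample arrays alone. Among all probe sets, 4715 were higher and 3393 lower in ASC than in QSC without scaling and 5426 and 2937 with median centring, against 3708 and 4540. For QSC and NMC they were 1346 and 4419 without scaling, against 3309 and 2893, and for ASC and NMC 5786 and 3025 with median centring, against 4120 and 4330. The median of all probe sets reached 0.39 with median centring (ASC minus NMC). With the replicate block in place of the kit 20, 19 and 20 member probe sets were called lower, and over all probe sets 7544, 5564 and 7804 were called, against 8248, 6202 and 8450; the block changed no member count. The causes were not tested. With 4 arrays a group and no detection calls, differences among signals under about 47.0 are the least certain.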
